A study of Mus musculus with 9 samples.

Results

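Neutrophils carry their killing proteins in granules that are filled in a fixed sequence during maturation in the marrow, and the genes of that sequence are described here in HoxA9-immortalised mouse bone marrow cells. Primary granules are filled first, at the promyelocyte stage, with myeloperoxidase and serine proteases. Secondary granules follow with lactoferrin and cathelicidin, and tertiary granules with gelatinase, while chemoattractant receptors mark the cells that are ready to leave the marrow. Of 49 listed genes, 43 had a probe set with a single gene symbol, 1 probe set each, out of 17731 genes measured in that way. Prss57, Mmp25, Retnlg, Fpr1, Ly6g and Stefb matched no probe set and are not analysed here. The 43 were grouped as 11 genes of the primary granule stage, 14 of the secondary, 5 of the tertiary, 8 of mature neutrophils and 5 of the oxidase and lysozyme. The groups follow stage, and not every gene in them is known to encode a granule protein. The first holds Igsf6 and Calr3, which encode a myeloid membrane protein and a calreticulin. The tertiary group holds Padi4, which encodes an enzyme that acts on histones.

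The series compared 3 groups of 3 Affymetrix arrays. All groups were C57BL/6 bone marrow cells immortalised with HoxA9, a homeobox transcription factor, and infected with a retrovirus. IDH1mut cells carried a pSF91 vector with mutant IDH1, IDH1wt cells one with wild-type IDH1, and CTL cells the empty EGFP vector. IDH1, an isocitrate dehydrogenase of the cytosol, makes 2-hydroxyglutarate when it carries a mutation found in leukaemia. Cells were injected into irradiated mice of the same strain, and 4 weeks later cells with green fluorescence were sorted from their marrow. The labels do not name the mutation, the species of the IDH1 insert or the age of the recipients, nor whether a replicate was 1 mouse, a pool or 1 clone. The p-values therefore measure the spread between these arrays.

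Values were log2 RMA expression values, with array medians between 4.65 and 4.72. Arrays of a group correlated at 0.992 to 0.997 over genes. Of the 43 genes, 42 read above the array median on all 9 arrays, Calr3 being the exception. Of 10 T and NK cell genes 5 did so. The sorted cells were not separated by neutrophil markers, so each value is a mean over all marrow cells sorted by green fluorescence. Differences are given as the difference of mean log2 values with its moderated standard error (SE) from limma, and genes are called changed at a Benjamini-Hochberg adjusted p below 0.05 over all 17731 genes.

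In IDH1mut against CTL the neutrophil genes split by stage. The stages were chosen with earlier results of these data known, so the split is not independent of these data. Of the 11 primary stage genes 7 fell and 1 rose, at a median log2 difference of -0.82. No gene of a later group fell: 10 of 14 secondary granule genes rose (median 0.56), 5 of 5 tertiary (0.86), 5 of 8 mature neutrophil (0.79) and 2 of 5 oxidase and lysozyme genes (0.27). Over all members 23 rose and 7 fell, so that 30 of 43 changed. Of all genes tested 10.1% rose and 10.6% fell, 20.7% in either direction, and their median was -0.04. Brighter genes were called more often. In a fit on the 8866 genes with means at or above the median, 3992 were called, and 24 of 42 members rose and 7 fell. Arrays of the IDH1mut and CTL groups did not overlap for 27 members that were higher and 7 that were lower, against 16.3% and 21.5% of all genes (37.8% in either direction). In these bulk samples a smaller share of cells of a stage and less RNA per cell cannot be told apart.

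**Figure D1:**
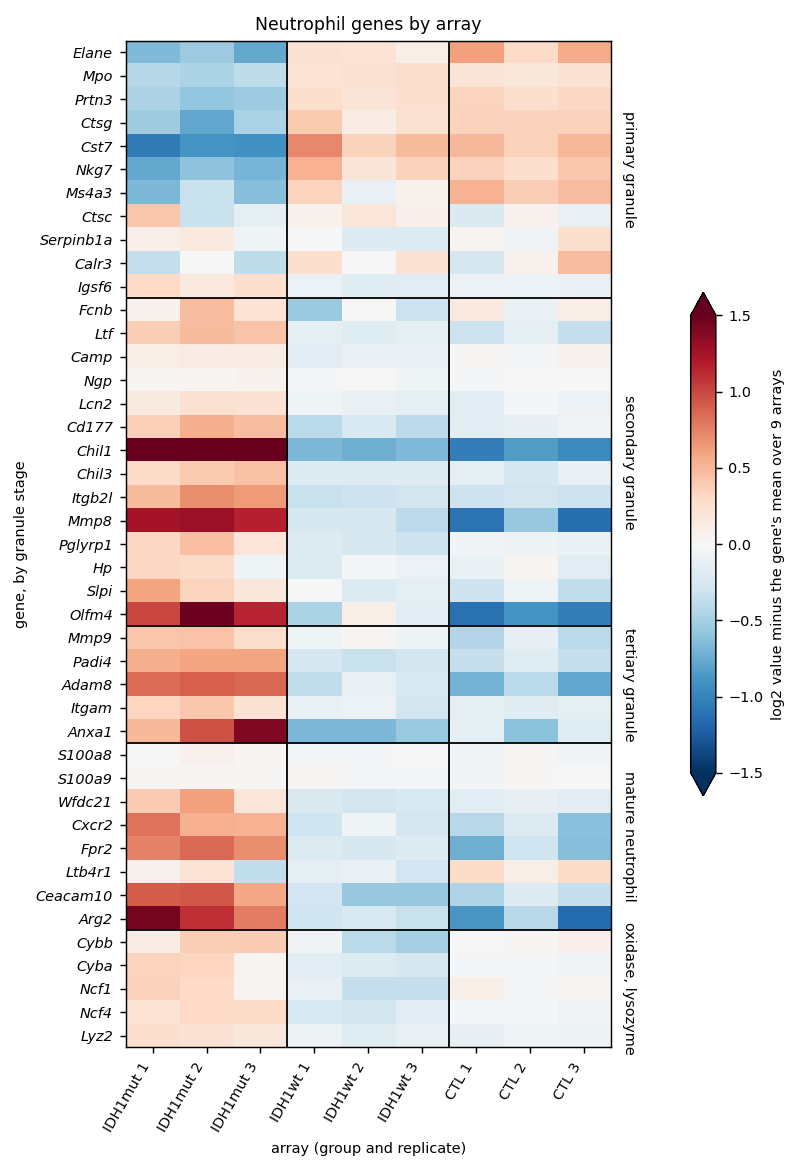
Each row is 1 of 43 neutrophil genes and each column 1 array, with IDH1mut, IDH1wt and CTL from left to right. Colour gives the log2 value minus that gene's mean over the 9 arrays (scale ends at 1.5, deeper values take the end colour). All 3 IDH1mut arrays are blue for Elane, Mpo, Prtn3, Ctsg, Cst7, Nkg7 and Ms4a3 and red for most later genes, and Camp, Ngp, S100a8 and S100a9 show almost no colour on any array.

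Elane, neutrophil elastase, read 10.24, 10.35 and 10.13 on the IDH1mut arrays, 11.13, 11.10 and 10.98 on the IDH1wt arrays, and 11.51, 11.19 and 11.45 on the CTL arrays. The 3 groups did not overlap, with IDH1mut lowest and CTL highest. The difference was -1.14 ± 0.11 (SE, n = 3 against 3) in IDH1mut against CTL, 2.20-fold lower (limma adjusted p = 7.63e-05). Cst7, cystatin F, an inhibitor of cathepsins, read 9.0, 9.15 and 9.14 in IDH1mut, 10.77, 10.39 and 10.52 in IDH1wt, and 10.53, 10.39 and 10.55 in CTL. Its IDH1mut arrays lay more than 1 unit below all others, whereas IDH1wt and CTL overlapped, and it was 2.62-fold lower in IDH1mut than in CTL (-1.39 ± 0.11; limma adjusted p = 2.93e-05). Nkg7, a membrane protein of cytotoxic granules, read 9.13, 9.30 and 9.21 in IDH1mut, 10.42, 10.10 and 10.25 in IDH1wt, and 10.25, 10.15 and 10.31 in CTL, again with the IDH1mut arrays apart from 2 overlapping groups. It fell by 1.03 ± 0.10 on the log2 scale. Ms4a3, a tetraspan protein of granulocyte and monocyte progenitors, read 11.17, 11.51 and 11.21 in IDH1mut, 12.18, 11.73 and 11.91 in IDH1wt, and 12.37, 12.22 and 12.31 in CTL. The groups stood in the same order as for Elane without overlap, at -1.0 ± 0.13 in IDH1mut against CTL.

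Mpo, myeloperoxidase, which makes hypochlorous acid, read 12.69, 12.64 and 12.73 in IDH1mut, 13.32, 13.34 and 13.38 in IDH1wt, and 13.31, 13.28 and 13.33 in CTL. The IDH1mut arrays were the lowest, and the fall of 0.62 ± 0.08 was the smallest of the 7. Prtn3, proteinase 3, averaged 12.09 ± 0.06 in IDH1mut (SD, n = 3), 12.86 ± 0.04 in IDH1wt and 12.92 ± 0.05 in CTL. Ctsg, cathepsin G, read 12.61, 12.36 and 12.66 in IDH1mut, 13.53, 13.25 and 13.37 in IDH1wt, and 13.49 on each CTL array. These serine proteases of the primary granule thus moved with Elane, Prtn3 at -0.82 ± 0.08 and Ctsg at -0.95 ± 0.11. Ctsc, the cathepsin that activates these proteases by removing their N-terminal dipeptide, did not pass (0.07 ± 0.16; limma adjusted p = 0.826). It read 10.98, 10.23 and 10.43 on the IDH1mut arrays, with replicate 1 above every other array of the study. Serpinb1a, an inhibitor of neutrophil elastase, did not pass either (-0.03 ± 0.11), nor did Calr3 (-0.35 ± 0.17). The probe set of Serpinb1a is of a kind that can match related transcripts, and close copies of that gene exist in the mouse, so its value is uncertain. Igsf6 rose by 0.32 ± 0.09 (limma adjusted p = 0.0223), a call that did not hold in 5 of 6 fits that each left out an array (adjusted p as high as 0.0743).

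Prtn3 and Elane lie side by side on chromosome 10, with 3.14 kb between them. Their promoters are shown because the 2 genes fell together. They come from RefSeq (GRCm38.p6), run from 250 bases before to 50 bases after the start, and lie at chr10:79879417-79879716 and chr10:79886062-79886361, both on the plus strand. Capitals mark the core letters of the PU.1 motif, GAGGAA or TTCCTC on the other strand, PU.1 being an ETS factor of myeloid cells.
Prtn3: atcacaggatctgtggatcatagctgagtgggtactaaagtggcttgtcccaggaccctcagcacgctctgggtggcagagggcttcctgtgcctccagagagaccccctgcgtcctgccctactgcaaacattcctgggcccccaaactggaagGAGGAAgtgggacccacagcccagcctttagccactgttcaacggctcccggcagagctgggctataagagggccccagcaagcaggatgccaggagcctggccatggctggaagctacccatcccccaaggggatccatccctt
Elane: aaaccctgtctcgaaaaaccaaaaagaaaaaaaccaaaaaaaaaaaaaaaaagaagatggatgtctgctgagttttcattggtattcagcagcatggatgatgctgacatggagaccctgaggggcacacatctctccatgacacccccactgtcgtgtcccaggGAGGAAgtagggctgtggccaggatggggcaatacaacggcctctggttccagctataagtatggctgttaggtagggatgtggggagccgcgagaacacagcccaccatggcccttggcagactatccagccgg
The match began 95 bases before the start in Prtn3 and 85 bases before it in Elane, on the plus strand in each.

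Among the secondary granule genes Chil1 changed most. Chil1, a chitinase-like protein of specific granules, read 10.17, 10.40 and 10.13 in IDH1mut, 7.92, 7.87 and 7.93 in IDH1wt, and 7.56, 7.76 and 7.64 in CTL. It was 5.98-fold higher in IDH1mut than in CTL (2.58 ± 0.10; limma adjusted p = 2.73e-07), and the lowest IDH1mut array was more than 2 units above the highest IDH1wt array. Olfm4, olfactomedin 4, a glycoprotein of the specific granules of a subset of neutrophils, read 9.30, 9.76 and 9.43 in IDH1mut, 7.82, 8.38 and 8.12 in IDH1wt, and 7.17, 7.40 and 7.25 in CTL. The 3 groups stood apart in that order, and the gene was 4.67-fold higher in IDH1mut than in CTL (2.22 ± 0.15; limma adjusted p = 1.04e-05). Mmp8, neutrophil collagenase, read 12.43, 12.46 and 12.35 in IDH1mut, 10.94, 10.94 and 10.79 in IDH1wt, and 10.07, 10.61 and 10.05 in CTL. Its groups were ordered like those of Olfm4, and CTL replicate 2 stood above the other CTL arrays. It was 4.50-fold higher in IDH1mut than in CTL (2.17 ± 0.14; limma adjusted p = 5.87e-06). Itgb2l, an integrin beta chain close to CD18, read 11.30, 11.53 and 11.47 in IDH1mut, 10.50, 10.52 and 10.55 in IDH1wt, and 10.52, 10.56 and 10.52 in CTL. IDH1wt and CTL were interleaved there, and the rise in IDH1mut was 0.90 ± 0.09.

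Ltf, lactoferrin, which binds iron, read 13.59, 13.69 and 13.65 in IDH1mut, 13.07, 13.04 and 13.08 in IDH1wt, and 12.89, 13.08 and 12.86 in CTL. It rose by 0.70 ± 0.09 in IDH1mut against CTL (limma adjusted p = 0.000414). Slpi, an inhibitor of elastase and cathepsin G, rose by 0.61 ± 0.13, Cd177, a surface partner of proteinase 3, by 0.57 ± 0.09, and Chil3, a chitinase-like lectin whose close copies make its value uncertain, by 0.54 ± 0.09. Pglyrp1, a peptidoglycan recognition protein, rose by 0.39 ± 0.10, a call lost without IDH1mut replicate 2 (limma adjusted p = 0.0568). Lcn2, lipocalin 2, which binds bacterial siderophores, rose by 0.28 ± 0.09, a call that 4 of 6 such fits did not keep (limma adjusted p as high as 0.141). The 4 secondary genes that did not pass were Camp, Ngp, Hp and Fcnb. Fcnb, ficolin B, a lectin of early granulocytes, stood at 0.20 ± 0.15, and Hp, haptoglobin, at 0.25 ± 0.12. Camp, the cathelicidin, read 14.04, 14.08 and 14.06 in IDH1mut, 13.79, 13.86 and 13.84 in IDH1wt, and 13.97, 13.94 and 14.01 in CTL, differing by 0.09 ± 0.08 between IDH1mut and CTL (limma adjusted p = 0.528). Ngp, a cathelicidin-related granule protein, differed by 0.04 ± 0.08. Camp, Ngp, S100a8 and S100a9 were 4 of the 5 probe sets that read within 0.5 of the table's highest value, 14.17, on all 9 arrays.

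The promoters of Chil1 (chr1:134181906-134182205) and Mmp8 (chr9:7558179-7558478), taken from RefSeq (GRCm38.p6) over the same stretch and both on the plus strand, are shown for 2 of the strongest rises. Capitals mark the PU.1 core and the core of C/EBP factors, TTNNGNAA or TTNCNNAA on the other strand. C/EBP factors drive granule genes at successive stages.
Chil1: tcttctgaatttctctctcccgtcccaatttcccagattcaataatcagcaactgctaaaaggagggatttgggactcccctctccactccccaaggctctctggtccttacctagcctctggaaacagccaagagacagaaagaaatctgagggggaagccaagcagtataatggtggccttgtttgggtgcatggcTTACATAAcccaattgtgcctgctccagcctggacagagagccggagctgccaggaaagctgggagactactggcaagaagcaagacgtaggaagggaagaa
Mmp8: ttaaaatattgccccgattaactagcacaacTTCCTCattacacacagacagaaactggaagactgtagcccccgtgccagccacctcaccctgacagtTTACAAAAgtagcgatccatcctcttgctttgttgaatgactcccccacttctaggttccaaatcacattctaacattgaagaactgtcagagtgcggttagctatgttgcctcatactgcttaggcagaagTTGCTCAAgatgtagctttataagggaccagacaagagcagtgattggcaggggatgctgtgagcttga
In Chil1 the C/EBP letters began 52 bases before the start. In Mmp8 they began 151 and 19 bases before it, and the PU.1 letters 219 bases before it. Promoters were on file for 37 of the 43 genes. The C/EBP core was found, on either strand, in 11 of 13 secondary genes and 4 of 10 primary stage genes, and in 40.7% of all 32851 promoters of this length. It was found in 15 of 19 genes that rose in IDH1mut against CTL and in 2 of 7 that fell. The PU.1 core was found in 7 of 13 secondary and 7 of 10 primary stage genes, and in 28.3% of all promoters. It was found in 13 of 19 genes that rose and in 5 of 7 that fell. The 2 motifs overlapped in 461 of all promoters, and a match describes the letters only.

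All 5 tertiary stage genes measured rose in IDH1mut against CTL. Adam8, a metalloprotease that sheds surface proteins, read 10.37, 10.43 and 10.39 in IDH1mut, 9.17, 9.42 and 9.31 in IDH1wt, and 8.83, 9.13 and 8.76 in CTL. It was 2.81-fold higher in IDH1mut than in CTL (1.49 ± 0.11; limma adjusted p = 1.84e-05), with the IDH1wt arrays between the other groups. Anxa1, annexin A1, an inhibitor of inflammatory neutrophil recruitment, read 6.36, 6.82 and 7.26 in IDH1mut, 5.20, 5.20 and 5.31 in IDH1wt, and 5.74, 5.25 and 5.69 in CTL. The IDH1mut arrays of Anxa1 spread the most of all members in that group (SD 0.45), yet all lay above CTL (1.25 ± 0.20). Its mean over the 9 arrays, 5.87, was the lowest of the members after Calr3. How well the Anxa1 probe set reports its gene was not tested. Padi4, which converts arginines of histones to citrulline when neutrophils release chromatin, read 10.41, 10.45 and 10.45 in IDH1mut, 9.61, 9.53 and 9.58 in IDH1wt, and 9.51, 9.68 and 9.52 in CTL. It rose by 0.86 ± 0.09. Mmp9, gelatinase B, the enzyme that names the gelatinase granule, read 12.74, 12.77 and 12.60 in IDH1mut, 12.28, 12.36 and 12.26 in IDH1wt, and 11.90, 12.22 and 11.93 in CTL. Its 3 groups did not overlap, and it rose by 0.69 ± 0.11 in IDH1mut against CTL. Itgam, the CD11b chain of the complement receptor Mac-1, rose by 0.48 ± 0.09.

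Of the 8 mature neutrophil genes measured, 5 rose and 0 fell in IDH1mut against CTL. Arg2, the mitochondrial arginase, read 10.08, 9.74 and 9.41 in IDH1mut, 8.34, 8.41 and 8.30 in IDH1wt, and 7.77, 8.22 and 7.48 in CTL. It was 3.79-fold higher in IDH1mut than in CTL (1.92 ± 0.19; limma adjusted p = 9.51e-05), and the CTL arrays of this gene spread the most of all members in their group (SD 0.38). Fpr2, a formyl peptide receptor that senses bacterial and mitochondrial peptides, read 12.69, 12.80 and 12.65 in IDH1mut, 11.74, 11.71 and 11.76 in IDH1wt, and 11.22, 11.65 and 11.31 in CTL, with no overlap between the 3 groups. Ceacam10, a secreted member of the carcinoembryonic antigen family, read 10.28, 10.30 and 9.95 in IDH1mut, 9.08, 8.80 and 8.80 in IDH1wt, and 8.92, 9.18 and 9.02 in CTL. Here IDH1wt and CTL overlapped, and the rise in IDH1mut was 1.13 ± 0.13. Cxcr2, the receptor for the chemokines that draw neutrophils out of the marrow, read 9.55, 9.27 and 9.26 in IDH1mut, 8.44, 8.68 and 8.49 in IDH1wt, and 8.32, 8.54 and 8.12 in CTL. It was 2.05-fold higher in IDH1mut than in CTL (1.03 ± 0.13; limma adjusted p = 0.000329). Wfdc21, a small whey acidic protein, rose by 0.54 ± 0.11.

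S100a8 and S100a9, the chains of calprotectin, did not pass. S100a8 read 13.94, 14.00 and 13.97 in IDH1mut, 13.92, 13.92 and 13.93 in IDH1wt, and 13.90, 13.96 and 13.90 in CTL, near the top of the scale (0.05 ± 0.08 in IDH1mut against CTL). S100a9 differed by 0.03 ± 0.08. Ltb4r1, the high-affinity leukotriene B4 receptor, was the sole gene after the primary stage with a negative value (-0.25 ± 0.14; limma adjusted p = 0.254). Its arrays read 10.23, 10.38 and 9.80 in IDH1mut and 10.45, 10.26 and 10.45 in CTL, and the 2 groups overlapped.

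The NADPH oxidase makes superoxide in the phagosome from a membrane pair, Cybb (gp91phox) and Cyba (p22phox), and cytosolic subunits such as Ncf1 (p47phox) and Ncf4 (p40phox). In IDH1mut against CTL, Ncf4 rose by 0.29 ± 0.08 and Lyz2, lysozyme, by 0.30 ± 0.08. Of the 6 fits that each left out an array, 5 did not keep the call of Ncf4 (limma adjusted p as high as 0.0857) and 4 did not keep that of Lyz2 (as high as 0.0971). Cyba stood at 0.27 ± 0.10, Cybb at 0.26 ± 0.12 and Ncf1 at 0.19 ± 0.11, and none of these passed. Cybb read 10.29, 10.54 and 10.56 in IDH1mut, 10.12, 9.77 and 9.68 in IDH1wt, and 10.18, 10.19 and 10.25 in CTL. The 3 groups did not overlap, with CTL in the middle. Ncf4 had the same order, reading 11.71, 11.81 and 11.78 in IDH1mut, 11.28, 11.23 and 11.34 in IDH1wt, and 11.48, 11.48 and 11.45 in CTL. Lyz2 read 13.73, 13.69 and 13.65 in IDH1mut, 13.40, 13.30 and 13.36 in IDH1wt, and 13.35, 13.41 and 13.40 in CTL, and its IDH1wt and CTL arrays overlapped.

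**Figure D2:**
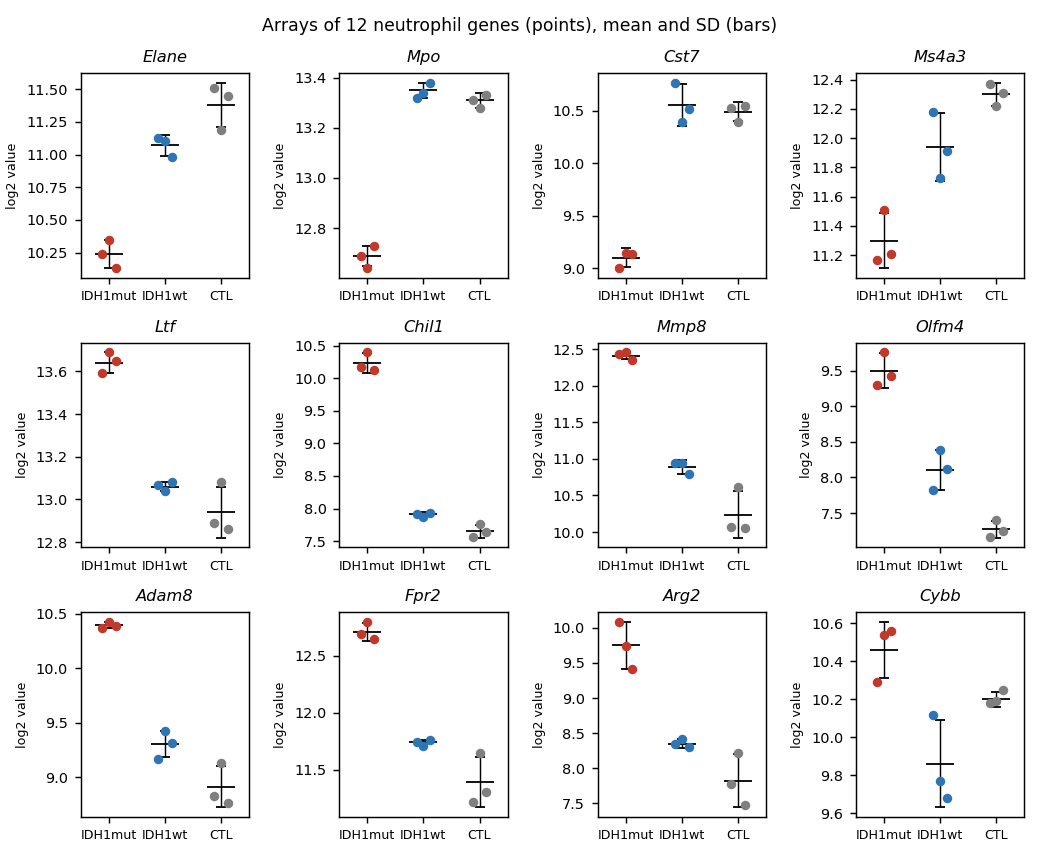
Points are the log2 values of single arrays for 12 neutrophil genes, bars the mean and SD of each group (n = 3 arrays), and each panel has its own axis, which does not start at 0. In Elane and Ms4a3 IDH1mut lies below IDH1wt and IDH1wt below CTL without overlap, in Chil1, Mmp8, Olfm4, Adam8, Fpr2 and Arg2 IDH1mut lies above IDH1wt and IDH1wt above CTL, and in Cybb the CTL arrays lie between the other groups.

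In IDH1wt against CTL, 2 of the 43 genes rose and 0 fell, where 1.62% of all genes rose and 0.711% fell, and the median of the members was -0.02. In the fit on the 8866 brighter genes 580 were called, and 2 of 42 members rose and 0 fell. Olfm4 rose by 0.83 ± 0.15 (limma adjusted p = 0.0179) and Mmp8 by 0.64 ± 0.14 (limma adjusted p = 0.0378). With an array left out, Mmp8 missed the threshold in 5 of 6 fits (adjusted p as high as 0.16) and Olfm4 in 4 of 6 (as high as 0.0865), each time without CTL replicate 1 and without CTL replicate 3 among others. IDH1wt and CTL arrays did not overlap for 7 members that were higher and 11 that were lower, against 10.7% and 12.9% of all genes (23.6% in either direction). At an unadjusted p below 0.05 there were 15 members of 43, against 3017 of 17731 genes. Next to these 2 genes stood Arg2 at 0.53 ± 0.19, Adam8 at 0.39 ± 0.11 and Fpr2 at 0.35 ± 0.11, with limma adjusted p of 0.194, 0.0991 and 0.153. On the negative side were Ltb4r1 at -0.40 ± 0.14, Ms4a3 at -0.36 ± 0.13, Cybb at -0.35 ± 0.12, Fcnb at -0.33 ± 0.15, Anxa1 at -0.32 ± 0.20, Elane at -0.31 ± 0.11 and Ncf1 at -0.30 ± 0.11, none past the threshold. The 11 primary stage genes ran from -0.36 to 0.19 with a median of -0.06.

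**Figure D3:**
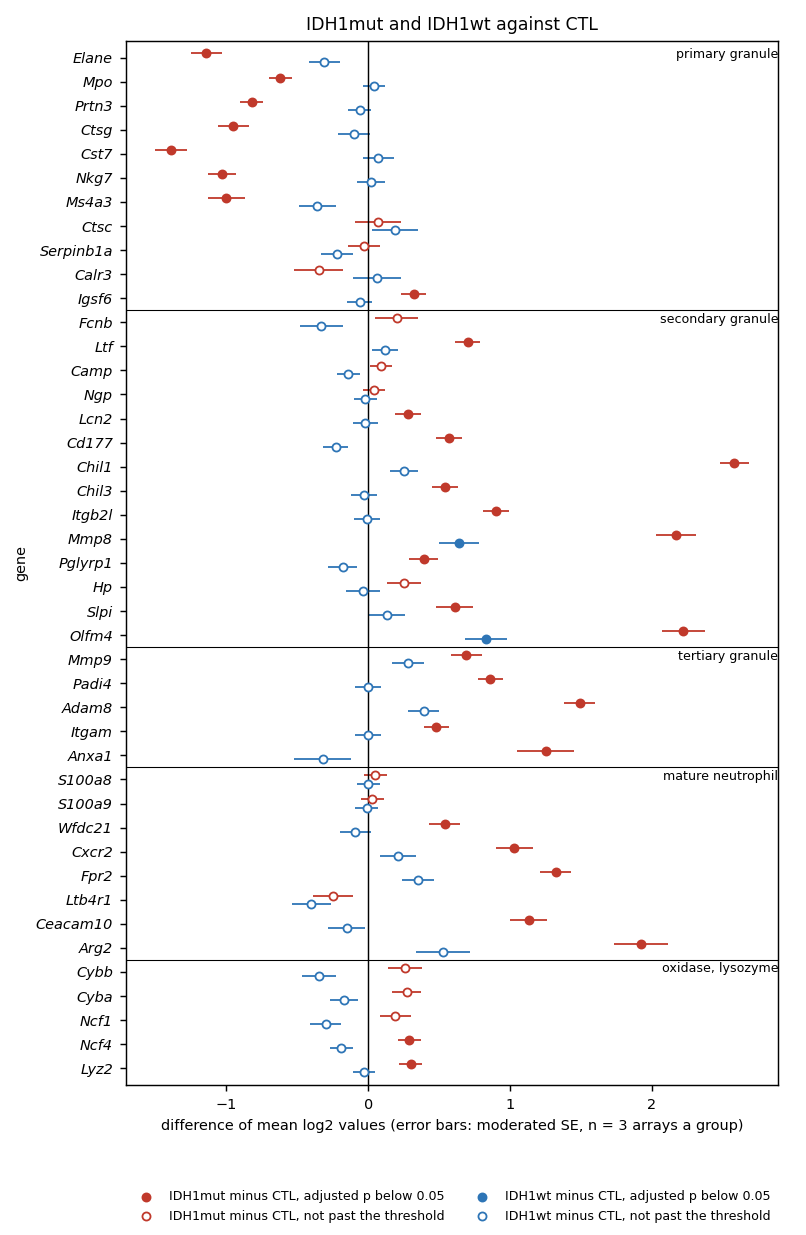
Differences of mean log2 values in IDH1mut minus CTL (red) and IDH1wt minus CTL (blue) for the 43 genes by stage, with moderated SE (n = 3 arrays a group). Both differences share the CTL arrays. Filled points passed an adjusted p of 0.05: 30 genes in IDH1mut, 23 of them to the right of 0, and Mmp8 and Olfm4 in IDH1wt.

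IDH1mut and IDH1wt were also compared directly, which asks whether the 2 vectors with an IDH1 insert differed. Of the 43 genes 27 rose and 7 fell in IDH1mut against IDH1wt, where 6.54% of all genes rose and 6.78% fell (13.3% in either direction). In the fit on the 8866 brighter genes 2828 were called, and 28 of 42 members rose and 7 fell. The 7 that fell were Elane, Mpo, Prtn3, Ctsg, Cst7, Nkg7 and Ms4a3, from Cst7 at -1.46 ± 0.11 (2.76-fold lower; limma adjusted p = 4.2e-05) to Ms4a3 at -0.64 ± 0.13. The largest rises were those of Chil1 (2.33 ± 0.10, 5.02-fold), Anxa1 (1.57 ± 0.20), Mmp8 (1.53 ± 0.14), Olfm4 and Arg2 (1.39 ± 0.15 and 1.39 ± 0.19) and Ceacam10 (1.28 ± 0.13). Mmp8 and Olfm4, the 2 genes that rose in IDH1wt against CTL, were thus still higher in IDH1mut than in IDH1wt, at limma adjusted p of 0.000143 and 0.000343. Of the 34 calls 8 were lost in at least 1 of the 6 fits that each left out an array, at limma adjusted p up to 0.135. Lcn2 lost its call in all 6 fits, and Fcnb, Lyz2, Mmp9 and Slpi in 4. Ncf1 lost its call in 2, and Cyba and Igsf6 in 1.

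All 5 oxidase and lysozyme genes rose in IDH1mut against IDH1wt, at a median of 0.48. Cybb rose by 0.61 ± 0.12 (limma adjusted p = 0.00883), Ncf1 by 0.49 ± 0.11, Ncf4 by 0.48 ± 0.08, Cyba by 0.44 ± 0.10 and Lyz2 by 0.34 ± 0.08. The same genes ran from -0.35 to -0.03 in IDH1wt against CTL, with 0 called and 3 at an unadjusted p below 0.05. Fcnb rose in IDH1mut against IDH1wt as well (0.53 ± 0.15; limma adjusted p = 0.0382). It read 10.86, 11.27 and 11.01 in IDH1mut, 10.25, 10.81 and 10.48 in IDH1wt, and 10.95, 10.70 and 10.90 in CTL, so that CTL overlapped with both other groups.

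Across the 3 groups, 7 of the 43 genes stood in the order IDH1mut above IDH1wt above CTL with no overlap, which 2.35% of all genes did. These were Chil1, Mmp8, Olfm4, Mmp9, Adam8, Fpr2 and Arg2. Elane and Ms4a3 stood in the reverse order, as did 2.01% of all genes. As many members, 7 of 43, stood with IDH1mut above CTL above IDH1wt and no overlap, namely Camp, Cd177, Pglyrp1, Wfdc21, Cybb, Cyba and Ncf4, where 0.688% of all genes did. None of these 7 passed in IDH1wt against CTL (limma adjusted p from 0.185 to 0.74), and Camp passed in no comparison. Of the genes in the other 2 orders, only Mmp8 and Olfm4 passed in IDH1wt against CTL. Members also spread less within IDH1wt (median SD 0.06) than all genes did (0.13), which makes a lack of overlap more frequent. No member stood with IDH1mut below CTL below IDH1wt, as 0.767% of all genes did.

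Single arrays within a group differed in ways shared by several genes. In CTL, replicate 2 was the highest array for 7 of 8 mature neutrophil genes and for 8 of 14 secondary genes, and the lowest for 7 of 11 primary stage genes. In IDH1mut, replicate 3 was the lowest array for 7 of 8 mature neutrophil genes, and replicate 2 the highest for 10 of 14 secondary genes. In IDH1wt, replicate 1 was the highest array for 9 of 11 primary stage genes and replicate 2 the lowest for 7 of 11. The SD of a member within its group had a median of 0.11 in IDH1mut, 0.06 in IDH1wt and 0.08 in CTL. Over all genes these medians were 0.13, 0.13 and 0.11.

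Neutrophil formation is driven by the receptor for G-CSF and by a small set of transcription factors. Of 15 such regulators measured, 3 rose and 5 fell in IDH1mut against CTL, at a median of -0.06. Of all genes 10.1% rose and 10.6% fell, and the fit on the 8866 brighter genes called 3992. Klf5, a Kruppel-like factor, rose by 1.22 ± 0.21 and Csf2ra, a chain of the GM-CSF receptor, by 0.50 ± 0.09. Csf3r, the G-CSF receptor, read 11.37, 11.07 and 11.10 in IDH1mut, 10.52, 10.79 and 10.69 in IDH1wt, and 10.35, 10.55 and 10.29 in CTL. It rose by 0.78 ± 0.12 in IDH1mut against CTL. The falls were those of Irf8, a factor that favours monocytes over neutrophils (-0.77 ± 0.16), Cebpa, which starts the granulocyte programme (-0.61 ± 0.09), Myb, a factor of progenitors (-0.59 ± 0.17), Runx3 (-0.57 ± 0.10) and Gfi1, a repressor needed for neutrophils (-0.48 ± 0.13). Cebpa read 8.59, 8.34 and 8.48 in IDH1mut, 8.99, 9.11 and 8.97 in IDH1wt, and 9.12, 9.07 and 9.06 in CTL, with IDH1mut below both. Spi1, which encodes PU.1, did not pass (0.26 ± 0.09; limma adjusted p = 0.0686). Cebpe, the C/EBP factor of secondary granule genes, matched no probe set. In IDH1wt against CTL, 1 of the 15 rose, Csf2ra again (0.48 ± 0.09), beside Klf5 at 0.77 ± 0.21, which did not pass. Of all genes 1.62% rose in that comparison. Of the 8 regulators called in IDH1mut against CTL, 4 also passed in IDH1mut against IDH1wt, Csf3r (0.51 ± 0.12), Irf8 (-0.87 ± 0.16), Runx3 (-0.65 ± 0.10) and Cebpa (-0.55 ± 0.09). The other 4 did not pass there, Klf5 at 0.45 ± 0.21, Csf2ra at 0.02 ± 0.09, Gfi1 at -0.05 ± 0.13 and Myb at -0.28 ± 0.17, with limma adjusted p of 0.187, 0.929, 0.853 and 0.349.

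**Figure D4:**
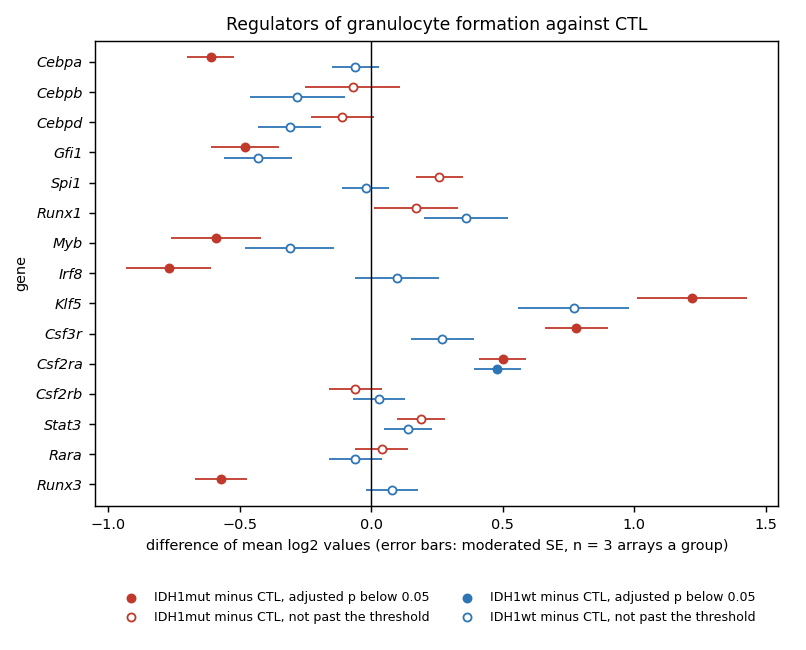
Differences of mean log2 values in IDH1mut minus CTL (red) and IDH1wt minus CTL (blue) for 15 regulators of granulocyte formation, with moderated SE (n = 3 arrays a group). Filled points passed an adjusted p of 0.05: Klf5, Csf3r and Csf2ra are to the right and Irf8, Cebpa, Myb, Runx3 and Gfi1 to the left in IDH1mut, and Csf2ra alone is filled in IDH1wt.

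Of 29 other neutrophil genes measured, 20 rose and 2 fell in IDH1mut against CTL, at a median of 0.48. The shares over all genes were 10.1% and 10.6%, and the fit on the 8866 brighter genes called 3992. Il1r2, the decoy receptor for interleukin 1, rose by 1.57 ± 0.12, Orm1, an acute phase glycoprotein, by 1.56 ± 0.18, Il1rn, the interleukin 1 receptor antagonist, by 1.43 ± 0.17 and Clec4d, a lectin receptor, by 1.35 ± 0.17. The 2 that fell were Csf2rb2 (-0.55 ± 0.11) and Stfa3, a stefin (-0.71 ± 0.19). Stfa3 moved most in IDH1wt, where it read 10.90, 11.36 and 11.05 against 8.29, 7.63 and 8.41 in CTL (2.99 ± 0.19). It belongs to a cluster of close copies, so its value is uncertain. Besides Stfa3, Alox5, the lipoxygenase that starts leukotriene synthesis, rose in IDH1wt against CTL (0.51 ± 0.09), and 0 of the 29 fell. Of all genes 1.62% rose and 0.711% fell there.

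Markers of other marrow cells were also examined in IDH1mut against CTL. Of all genes 10.1% rose and 10.6% fell there, 20.7% in either direction. The fit on the 8866 brighter genes called 3992. Of 11 erythroid genes 10 rose in IDH1mut against CTL, led by Rhag (1.81 ± 0.40) and Hemgn (1.72 ± 0.33). Their summed linear level was 6131 to 7042 on the IDH1mut arrays, 1815 to 6036 on the IDH1wt arrays and 2449 to 2737 on the CTL arrays. In IDH1mut against IDH1wt all 11 erythroid genes were higher, but 0 passed the threshold. Of 10 monocyte genes 0 rose and 4 fell in IDH1mut against CTL, Cd14 (-1.48 ± 0.18), Ms4a6c (-0.78 ± 0.14), Irf8 and F13a1. Their sum was 8483 to 13520 in IDH1mut, 14560 to 15060 in IDH1wt and 13390 to 14170 in CTL. Of 12 eosinophil, basophil and mast cell genes 5 fell and 2 rose, the largest fall being that of Prg2, the eosinophil major basic protein (-2.06 ± 0.29). The 2 that rose were Gata1, also counted among the erythroid genes, and Ccr3. Ccr3 read below the array medians, averaging 3.07 in IDH1mut and 2.6 in CTL. Sums over the 12 genes were 2784 to 4303 in IDH1mut, 4846 to 10360 in IDH1wt and 5474 to 5571 in CTL. Of 12 macrophage genes 2 rose (C1qa and C1qb) and 2 fell (Vcam1 and Mrc1), with sums of 1761 to 2300 in IDH1mut, 2047 to 2238 in IDH1wt and 1862 to 2041 in CTL. Of 9 B cell genes 3 rose (Dntt, Vpreb1 and Igll1) and 0 fell, with sums of 1360 to 3386 in IDH1mut, 407.5 to 902 in IDH1wt and 734.6 to 1593 in CTL. Of 10 genes of T and NK cells 2 rose (Cd3g and Cd3d) and 0 fell, near the share of all genes called. Their sums were 378.3 to 460.0 in IDH1mut, 276.6 to 314.1 in IDH1wt and 307.8 to 358.8 in CTL. Of 6 genes listed as general leukocyte genes 3 rose, Coro1a the most (1.68 ± 0.10), and 1 fell, Laptm5 (-0.62 ± 0.10). Coro1a averaged only 6.93 in IDH1mut and 5.25 in CTL, where Cd52 averaged 13.18 and 12.82. How well the Coro1a probe set reports its gene was not tested. No defining marker reads 0 on this scale. The part of these cell types in the neutrophil results was not tested.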

How the data were processed

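The deposited table holds log2 expression values per probe set from 9 Affymetrix mouse arrays, 1 per sample. The authors made these log2 values with RMA (background correction, quantile normalization, probe set summary), per the submitters' processing notes, which give no version. How the table came to hold nearly 1 probe set a gene was not stated, and the values carry no call of detection. The number of arrays, 3 a group, limits the precision.

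Probe sets were named from GEO's platform annotation: of 20877, 17815 had 1 symbol, 244 several and 2818 none. Where a gene had several, that of highest mean value across arrays stood for it. All 43 members matched the RefSeq gene table by gene ID. A mean per group was fitted with limma 3.58.1 in R 4.3.3 to all 9 arrays, with two-sided moderated contrasts and Benjamini-Hochberg adjustment over 17731 genes at 0.05. Summed linear levels add 2 to the power of each value. On simulated data for IDH1mut against CTL (17731 genes, 200 altered), 47.8% of genes altered by a log2 size of 0.5, 95.5% at 1 and 100% at 2 were recovered, and 13 of 175 calls were false. The altered genes were drawn at random from all genes, and 3663 genes were called in the real data. These rates therefore do not give the recovery of the members.

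The members, their stages and the other lists were chosen with earlier results of these data known. Values on all arrays are given for landmark genes and for up to 4 called members per stage with the largest change in IDH1mut against CTL whose arrays did not overlap, besides members called in IDH1wt. In other lists up to 4 called genes with the largest change were the rule. Ctsg, Ctsc, Igsf6, Fcnb, Ltb4r1, Csf3r, Cebpa and the remaining members and regulators are named beyond it, after their values were seen.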

Additional observations from a re-analysis of the deposited data

How the results depend on the processing

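The alternatives were probe sets averaged per gene, the brighter genes alone, a repeated quantile normalization, centring of arrays, a fit on the 6 arrays compared, robust variances with an intensity trend, weights for arrays, a replicate block, and leaving out each array. In IDH1mut against CTL, 7 members fell under each of them, and between 19 and 22 rose on leaving out single arrays. In IDH1mut against IDH1wt likewise 7 fell each time, and 20 to 26 rose. With the replicate block, 21 members rose in IDH1mut against CTL, 26 in IDH1mut against IDH1wt and 2 in IDH1wt against CTL; Lcn2 lost its call in the first of these comparisons and the second, and Ncf4 in the first. The titles number the replicates alike in each group, but same-numbered arrays did not deviate together from their group means (correlations from -0.09 to 0.03), so the pairing is by number alone.

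The comparison of IDH1wt with CTL was the least stable. There 1 member rose in a fit on the 6 arrays compared, 4 rose with robust variances and an intensity trend, while 4 rose and 4 fell with array weights. On leaving out single arrays, 0 to 4 rose and 0 to 1 fell. The cause was not tested. Over all genes the calls in IDH1wt against CTL numbered 414, but 717 with robust variances and an intensity trend, 1226 with array weights, and 132 to 570 on leaving out single arrays (132 without CTL replicate 1). Leaving out single arrays gave 2370 to 3390 calls in IDH1mut against CTL, with 2370 without CTL replicate 1 against 3663 in all. In IDH1mut against IDH1wt it gave 1475 to 2050, with 1475 without IDH1wt replicate 3 and 1528 without IDH1mut replicate 2 against 2363 in all. No member that had been called changed sign under these alternatives. Camp, Ngp, S100a8 and S100a9 read near the highest values of the table and Calr3 below the array medians, and whether the signal range limits their folds was not tested.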
